A study of Mus musculus with 61 samples.

Results

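The genes described here make, carry, break down or sense serotonin: *Tph2*, *Slc6a4*, *Maoa*, *Maob*, *Htr1a*, *Htr1b*, *Htr2a*, *Htr2c*, *Htr3a* and *Htr7*. The 10 genes were chosen by name, and a probe set of the array counted for a gene when the annotation gave that gene and no other. By this rule 9 of the 10 genes were measured, by 14 of the 45037 probe sets of the array, which name 18193 genes in all. *Htr2a* was not analysed here, because no probe set of the annotation used here named it alone. Where a gene had 2 probe sets, the one with the higher mean signal over all 61 arrays stands for it, and the other is given beside it.

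The samples were brain regions of untreated wild type male mice, 8 weeks old, of the inbred strains FVB/NJ, DBA/2J, C57BL/6J, C3H/HeJ, A/J and 129S6/SvEvTac, and inbred mice of a strain share a genotype. From each of the 6 strains the study took 5 regions, the hippocampus, the bnst (the bed nucleus of the stria terminalis), the hypothalamus, the periaqueductal gray (pag) and the pituitary gland, to ask how expression differs between strains and between regions. Each of the 30 groups of strain and region had 2 arrays of independent animals, except C3H/HeJ bnst with 3. A hippocampus array held RNA of 1 mouse, a pituitary gland array that of 5 and a bnst array that of 2 or 3, while a hypothalamus or pag array held that of 2, apart from 1 array of each region with 1 mouse. The signal is the brightness of a probe set in arbitrary units, scaled by the authors, and signals below the 20th percentile of all values (12.8, called the floor here) were raised to it before log2 was taken.

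Most markers of the labelled regions were highest where their labels put them, with 3 exceptions in the bnst that touch the results. Some pituitary hormone genes also gave signal in the hypothalamus, and some hypothalamic peptide genes in the pituitary gland. All 7 pituitary hormone genes measured were highest in the pituitary gland, all 5 hypothalamic peptide genes in the hypothalamus, and 6 of 7 genes of hippocampal principal neurons in the hippocampus. In the bnst all 6 genes of thalamic neurons were at their highest, with a summed signal of 4791 to 10090 on the 13 arrays against 2249 to 3393 in the pag. The summed signal of 7 choroid plexus genes ran from 374 to 10710 among the bnst arrays. Hypothalamic peptide genes were high there as well, with a summed signal of 4840 to 10910 on the bnst arrays, 11310 to 18860 in the hypothalamus and 174 to 468 in the hippocampus and the pag. *Hcrt*, of neurons of the lateral hypothalamus, had a mean signal of 802 in the bnst and of 1152 in the hypothalamus. In the hypothalamus *Cga* had a mean of 321 and *Tshb* of 238, against at most 48.7 and 60.5 in the other brain regions. *Gh* had 1329, against at most 651, while *Lhb* had 65.6, against at most 62.0, and *Fshb* 4.69. In the pituitary gland *Avp* had 579 and *Oxt* 869, and *Hcrt*, *Pmch* and *Trh* had 51.4, 51.9 and 16.1. The part of these signals in the results was not tested.

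Serotonin neurons make their transmitter from tryptophan, and tryptophan hydroxylase, encoded by *Tph2* in the brain, catalyses the limiting step. The transporter encoded by *Slc6a4*, the target of the selective reuptake inhibitors, takes released serotonin back up, and the monoamine oxidases encoded by *Maoa* and *Maob* degrade it. The cell bodies of these neurons lie in the raphe nuclei of the brainstem, the dorsal raphe nucleus lying in the ventral part of the pag, and their axons reach the forebrain, where cells of many types carry the receptors.

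*Tph2* and *Slc6a4* had the largest regional differences of the 9 genes, and the 250 bases before their annotated starts are shown because both were high in the same region. The sequences are those of RefSeq on GRCm38.p6, and the capitals mark GGAA, the core that factors of the ETS family bind, or its reverse complement TTCC. The ETS family includes Fev, a factor of serotonin neurons whose gene was not analysed here. The first lies at chr10:115185023-115185272 on the minus strand and the second at chr11:76998347-76998596 on the plus strand.
Tph2: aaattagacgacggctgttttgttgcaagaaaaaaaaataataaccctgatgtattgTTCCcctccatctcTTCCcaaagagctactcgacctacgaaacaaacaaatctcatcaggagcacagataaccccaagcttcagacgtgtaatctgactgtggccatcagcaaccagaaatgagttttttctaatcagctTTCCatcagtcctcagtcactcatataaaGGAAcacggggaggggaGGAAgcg
Slc6a4: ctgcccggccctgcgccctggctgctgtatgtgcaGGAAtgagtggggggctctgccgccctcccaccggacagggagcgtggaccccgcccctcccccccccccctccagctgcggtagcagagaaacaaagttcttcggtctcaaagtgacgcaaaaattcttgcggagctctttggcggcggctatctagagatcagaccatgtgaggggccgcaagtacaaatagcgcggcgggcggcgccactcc
The window of *Tph2* held 5 such cores on both strands and that of *Slc6a4* held 1, and 93.4% of the 27025 windows of this length in the table held at least 1. TATAAA, searched on both strands, was present before *Tph2* and in 13% of all windows. TGACG, present in 17.9% of the windows, and GGGCGG, present in 32.9%, were both found before *Slc6a4* and not before *Tph2*. The 2 windows differed in base composition, with 43.6% G and C for *Tph2* and 64.8% for *Slc6a4*, against a median of 52.0% over all windows. These matches describe the letters and show no binding.

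*Tph2* (chromosome 10, 115078641 to 115185022) gave a high signal in the pag and in no other region. On the 12 pag arrays its signal was 751 at the lowest, 1139 at the median and 1542 at the highest. On the other 49 arrays it lay between -2.71 and 17.9, and 6 of the 49 exceeded the floor, 5 of them from the pituitary gland. The pag arrays thus did not overlap any other array. *Tph2* in the pag was at least 87.7-fold higher than in the bnst and the hypothalamus, taking the floor for both, where no array exceeded it. The log2 difference was 6.45 ± 0.08 (SE) against the bnst and 6.31 ± 0.08 against the pituitary gland, with adjusted p-values of 2.16e-36 and 1.87e-37 by limma.

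*Slc6a4* (chromosome 11, 76998597 to 77032343) showed the same restriction. Its signal in the pag was 676 at the lowest, 1021 at the median and 1551 at the highest, and on the other 49 arrays it lay between -25.9 and 20.7, with 4 above the floor. Again the pag stood clear of every other array. The pag was at least 80.8-fold above the hippocampus and the hypothalamus, with the floor for both. Its log2 difference from the hypothalamus was 6.34 ± 0.08 (SE, adjusted p = 8.61e-36). Among the remaining 4 regions no pair differed by the test for either gene. With the floor lowered to the 10th percentile the pituitary gland exceeded the bnst in *Tph2* by 0.61 (adjusted p = 0.00644) and the hippocampus in *Slc6a4* by 0.55 (adjusted p = 0.0445). In tissue RNA, more cells of a type and more RNA per cell cannot be told apart.

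**Figure D1:**
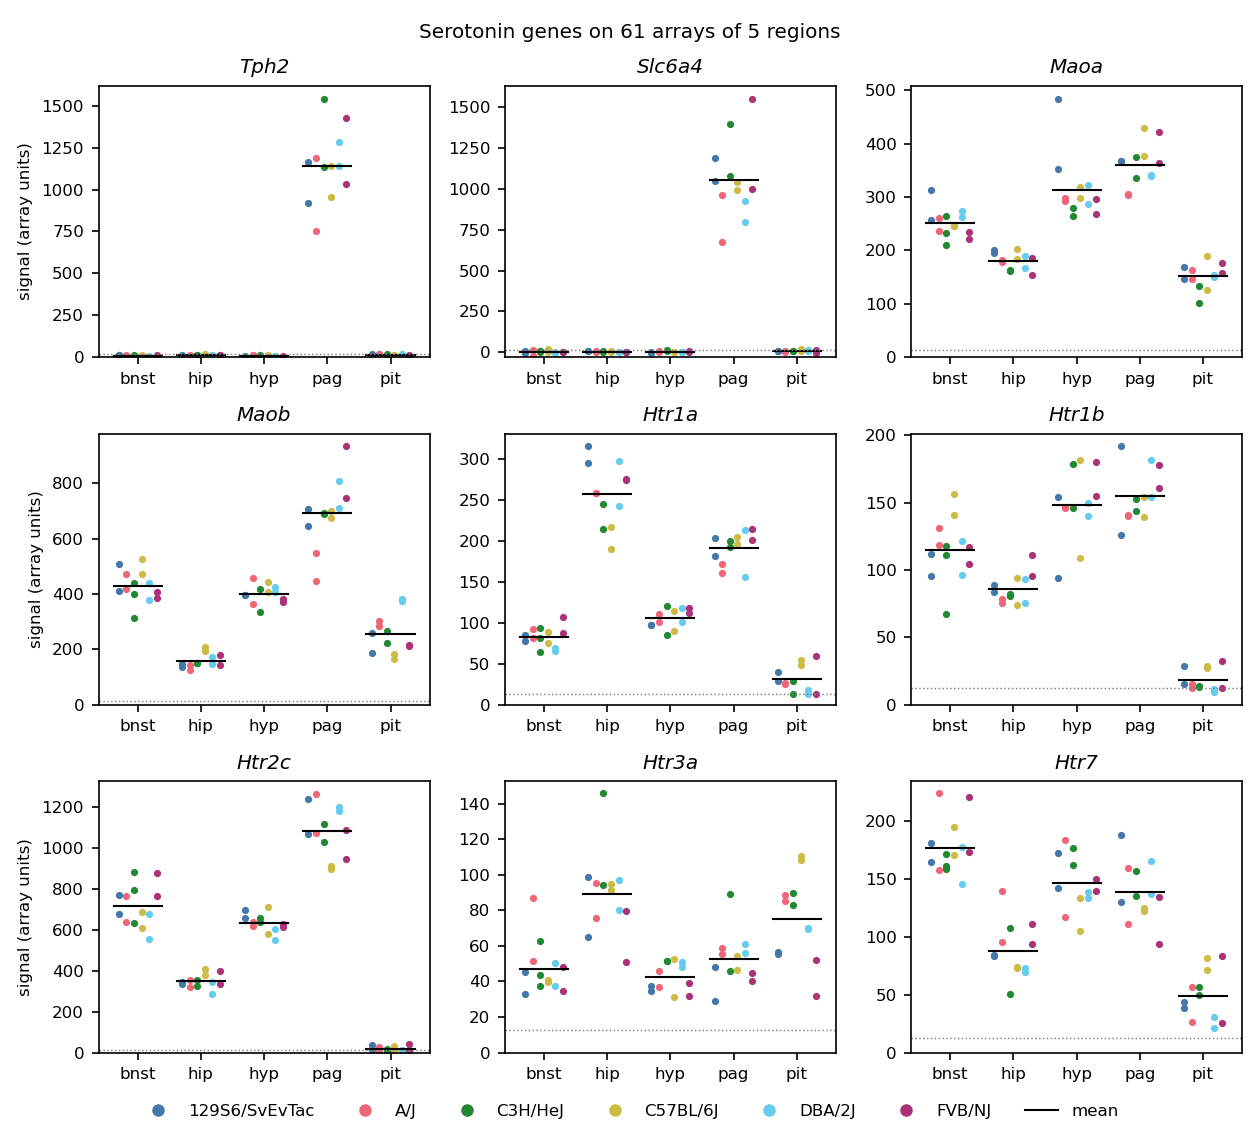
Signal in arbitrary array units (linear axes, one scale per gene) of the 9 measured genes on 61 arrays, by region (hip, hippocampus; hyp, hypothalamus; pit, pituitary gland). Each point is an array, coloured by strain, a black line is the mean of the region's arrays and the dotted line is the floor of 12.8. *Tph2* and *Slc6a4* exceed 600 only in the pag, and *Htr1b* and *Htr2c* are near the floor in the pituitary gland.

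Other genes of serotonin neurons were read from lists made for this purpose. Among 7 transcription factors that such neurons use, 5 were higher in the pag than in the bnst and none lower, where 23.1% of all probe sets were called. The median log2 difference was 2.27 over the 7 against 0.052 over all probe sets tested. Compared with the hypothalamus, 4 of the 7 were higher in the pag and none lower, with a median of 0.825 (26.2% of all probe sets were called). *Gata3*, which specifies serotonin neurons among other cells, had a mean signal of 156 in the pag and of under 0 in each other region, so that its log2 difference from the bnst, 3.60 ± 0.05 on the floored scale (SE, adjusted p = 2.85e-36), depends on the floor. *En1* and *En2*, engrailed factors of the midbrain, had mean signals of 110 and 189 in the pag. *Lmx1b* differed little between regions, from 40.8 in the bnst to 48.7 in the pituitary gland, and did not pass the test (adjusted p = 0.778). *Gata2* was highest in the pituitary gland, with a mean of 458 there and of 178 in the pag. *Nkx2-2* had means of 181 in the bnst, 206 in the hypothalamus and 221 in the pag, and *Foxa1* of 63.0 in the hypothalamus and 82.7 in the pag.

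Of 10 further enzymes and transporters of the pathway, 6 were higher in the pag than in the bnst and none lower, where 23.1% of all probe sets were called in either direction. *Ddc*, the decarboxylase that turns 5-hydroxytryptophan into serotonin and serves dopamine neurons as well, had mean signals of 1760 in the pag, 638 in the hypothalamus and 81.7 in the hippocampus. *Slc18a2*, the vesicular monoamine transporter, followed with 869 in the pag and 283 in the hypothalamus. *Gch1*, which supplies the cofactor of tryptophan hydroxylase, was at 206 in the pag and 48.1 in the hypothalamus. *Tph1*, the hydroxylase of peripheral tissues, had region means of 21.2 to 29.7 and showed no difference by the test (adjusted p = 0.535). Genes of dopamine and noradrenaline neurons were also higher in the pag than in the bnst, 5 of the 6 measured, beside the same 23.1%. Their summed signal ran from 504 to 2581 among the pag arrays and its part in the values of *Ddc* and *Slc18a2* was not tested.

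The monoamine oxidases were present in all regions. They lie near each other on chromosome X, *Maoa* at 16619698 to 16687812 and *Maob* at 16709281 to 16817366. The enzyme of *Maoa* prefers serotonin and noradrenaline, and that of *Maob* phenylethylamine. *Maoa* had signals of 305, 366 and 429 (lowest, median and highest of 12 arrays) in the pag, 265, 297 and 484 in the hypothalamus, 210, 246 and 313 on the 13 bnst arrays, 154, 184 and 202 in the hippocampus and 102, 151 and 190 in the pituitary gland. Each region differed from the next in this order by the test, although their ranges overlapped except between bnst and hippocampus. The difference between pag and hypothalamus, 0.21 ± 0.06 on the log2 scale (SE, adjusted p = 0.00623), was the smallest of the 4. It fell to 0.16 (adjusted p = 0.0906) when each array was scaled to 1 median, and the second probe set of *Maoa* had the hypothalamus ahead (pag minus hypothalamus, -0.048, adjusted p = 0.797).

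*Maob* varied more between regions than *Maoa*. Its signals were 446, 695 and 933 in the pag, 313, 417 and 528 in the bnst, 335, 402 and 456 in the hypothalamus, 164, 242 and 383 in the pituitary gland and 124, 150 and 209 in the hippocampus. The bnst and the hypothalamus were not distinguished (0.10 ± 0.06, SE, adjusted p = 0.262), while every other neighbouring pair differed, with overlapping ranges. The pag was 4.34-fold above the hippocampus, a log2 difference of 2.12 ± 0.06 (SE, adjusted p = 1.16e-25), and *Maoa* differed there by 0.995 ± 0.06. The 2 genes also parted in the pituitary gland. *Maob* was 0.65 ± 0.06 higher there than in the hippocampus (adjusted p = 1.18e-11), whereas *Maoa* was lower, by a log2 difference of -0.27 ± 0.06 (SE, adjusted p = 0.000152).

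Among the receptors, *Htr1a*, which couples to inhibitory G proteins and acts on serotonin neurons as autoreceptor as well as on their targets, was highest in the hippocampus (chromosome 13, 105443693 to 105448133). Signals there were 190, 258 and 315 (lowest, median and highest of 12 arrays). The pag followed with 156, 198 and 215, the hypothalamus with 85.5, 106 and 121, the bnst with 64.7, 81.5 and 108, and the pituitary gland with 12.6, 27.5 and 60.1. Hippocampus and pag overlapped, yet differed by 0.42 ± 0.14 (SE, adjusted p = 0.0159). The second probe set of *Htr1a* gave the same order at the top with 0.27 ± 0.18 (SE, adjusted p = 0.240). Hypothalamus and bnst missed the threshold (0.36 ± 0.14, SE, adjusted p = 0.0592), and passed it with a pseudocount of 32 (adjusted p = 0.00624) or a floor at the 30th percentile (adjusted p = 0.00617). By the second probe set the sign was opposite and the 2 regions did not differ (hypothalamus minus bnst, -0.03 ± 0.18, SE, adjusted p = 0.968).

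*Htr2c* encodes an excitatory receptor of neurons and of the choroid plexus, whose transcript is edited, and lies on chromosome X at 146962464 to 147197277. Its signals were 897, 1083 and 1265 in the pag, 558, 687 and 883 in the bnst, 549, 632 and 712 in the hypothalamus, 286, 345 and 409 in the hippocampus and 6.37, 14.3 and 40.7 in the pituitary gland. The pag and the hippocampus stood apart from every other region with no overlap, whereas the bnst and the hypothalamus differed by 0.16 ± 0.14 (SE, adjusted p = 0.490). The pag was 1.52-fold above the bnst (0.61 ± 0.14, SE, adjusted p = 0.00121) and 3.11-fold above the hippocampus. The second probe set of *Htr2c* kept this order, and by it the bnst and the hypothalamus did differ (-0.33 ± 0.09 for hypothalamus minus bnst, SE, adjusted p = 0.00836). By that probe set the ranges of the hypothalamus and the hippocampus overlapped. Of the 7 choroid plexus genes, 5 had their highest mean in the bnst, among them *Ttr*, the main secreted product of the choroid plexus (4537, against 165 in the pag). *Otx2* was highest in the pag (114) and next in the bnst (106), and *Folr1* in the pituitary gland. On the 4 bnst arrays with the lowest choroid plexus sums (374 to 3055) *Htr2c* was 608 to 794, and on the 4 with the highest (8858 to 10710) it was 678 to 883. A correlation of *Htr2c* with *Ttr* within regions is given below, and the part of choroid plexus in these signals was not tested.

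*Htr7*, coupled to stimulatory G proteins, was the member with its highest mean in the bnst (chromosome 19, 35958415 to 36058133). Signals were 146, 171 and 224 there, 105, 141 and 184 in the hypothalamus, 93.9, 135 and 188 in the pag, 50.9, 83.8 and 139 in the hippocampus and 20.8, 46.5 and 83.0 in the pituitary gland. The first 3 regions were not separated by the test, with 0.29 ± 0.14 (SE, adjusted p = 0.153) between bnst and hypothalamus and 0.08 ± 0.14 (SE, adjusted p = 0.730) between hypothalamus and pag. The difference of pag and bnst, -0.38 ± 0.14 (SE, adjusted p = 0.0515), passed under 5 of the other settings, with adjusted p-values of 0.00912 to 0.0473. Both probe sets of *Htr7* gave this order. *Htr7* is known from thalamic neurons as well, and the thalamic sums given above were highest in the same arrays. On the 3 bnst arrays with the lowest thalamic sums (4791 to 5269) *Htr7* was 158 to 171, and on the 3 with the highest (7224 to 10090) it was 164 to 224. The part of thalamic tissue in these signals was not tested.

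*Htr3a*, a subunit of the serotonin-gated ion channel that marks interneurons of the forebrain, had modest regional differences (chromosome 9, 48899213 to 48911152). Its signals were 50.7, 92.9 and 146 in the hippocampus and 31.7, 76.7 and 111 in the pituitary gland, which were not distinguished by the test (0.28 ± 0.13, SE, adjusted p = 0.0599), although scaling each array to 1 median gave a call (-0.46 for pituitary gland minus hippocampus, adjusted p = 0.00135). In the pag they were 28.9, 51.2 and 89.1, in the bnst 33.1, 43.4 and 87.2 and in the hypothalamus 31.2, 42.4 and 52.8, and these 3 regions were not separated. *Htr3a* was thus the only measured member with a higher level in the pituitary gland than in the pag, by 0.49 ± 0.13 (SE, adjusted p = 0.00117).

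*Htr1b*, the terminal autoreceptor of serotonin axons and a receptor on other terminals, had 2 probe sets that did not tell the same story (chromosome 9, 81628291 to 81633832). By the brighter of them signals were 126, 153 and 192 in the pag, 93.9, 148 and 182 in the hypothalamus, 67.7, 117 and 157 in the bnst, 74.5, 83.1 and 111 in the hippocampus and 9.75, 14.8 and 32.4 in the pituitary gland. The pag and the hypothalamus did not separate (0.08 ± 0.12, SE, adjusted p = 0.700), and the hypothalamus was ahead of the bnst by 0.36 ± 0.12 (SE, adjusted p = 0.0267). No pituitary gland array reached another region, and the hippocampus was 2.28 ± 0.12 higher on the log2 scale (SE, adjusted p = 1.03e-18). By the other the pituitary gland had 48.7, 93.5 and 197 and exceeded the hippocampus (30.8, 68.3 and 109) by 0.60 (adjusted p = 0.00126). Its values in the pag (71.4, 92.7 and 155) lay within the range of the pituitary gland. The pituitary level of *Htr1b* was therefore not settled by these arrays, and both probe sets had the hippocampus lowest among the 4 brain regions. By the dimmer probe set the bnst was not separated from the hypothalamus (hypothalamus minus bnst, -0.14, adjusted p = 0.640) or the pag (pag minus bnst, 0.09, adjusted p = 0.767).

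**Figure D2:**
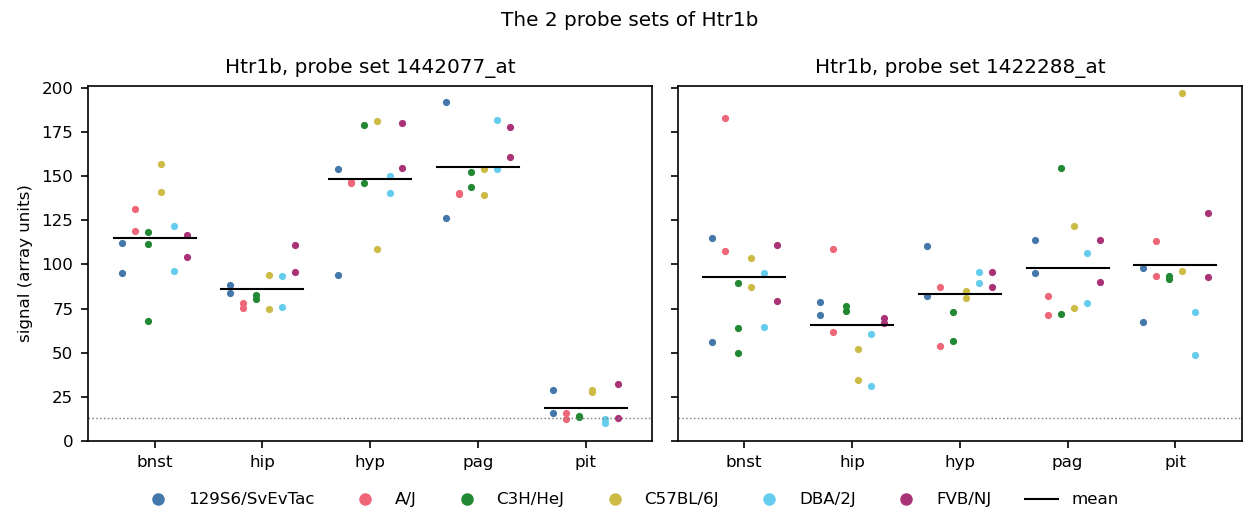
Signal in arbitrary array units of both *Htr1b* probe sets on 61 arrays, by region; points are arrays coloured by strain, black lines region means and the dotted line the floor of 12.8. In the pituitary gland the left probe set stays at or under 32.4 and the right one at or above 48.7.

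All 9 measured genes differed between regions by the F test across the 5 regions, as did 71.7% of all 44065 probe sets tested, so that a regional difference by itself did not set these genes apart. Between the pag and the hippocampus all 9 were called, 7 higher in the pag (*Htr1a* and *Htr3a* lower), against 42.2% of all probe sets. Their median log2 difference was 0.995 and that of all probe sets 0.08. Between the pag and the bnst 7 were called, all higher in the pag (23.1% of all probe sets), and between the pag and the hypothalamus 6, again all higher in the pag (26.2%). Between the bnst and the hypothalamus 2 of the 9 genes were called, *Maoa* and *Htr1b*, both higher in the hypothalamus, a share near the 23.1% of all probe sets. The part of the hypothalamic signal in the bnst arrays, given above, was not tested. The call of *Htr1b* was lost without any 1 of 6 arrays (adjusted p up to 0.0838) and with each array scaled to 1 median (adjusted p = 0.0621). By its second probe set neither the hypothalamus nor the pag was called against the bnst.

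The hippocampus differed from the bnst in 7 genes, *Htr1a* and *Htr3a* being higher and 5 lower (33.7% of all probe sets), and from the hypothalamus in 7 (36.8%), 5 of them higher in the hypothalamus. In the pituitary gland 8 genes were lower and 1 higher than in the pag (60.1% of all probe sets), with a median log2 difference of -2.81 against 0.05 over all probe sets. Against the other regions the pituitary gland differed in 7 genes from the bnst (62.0%), in 6 from the hippocampus (62.7%) and in 7 from the hypothalamus (60.3%). In each of these 3 comparisons 1 gene was higher in the pituitary gland, *Htr3a* against the bnst and the hypothalamus and *Maob* against the hippocampus.

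**Figure D3:**
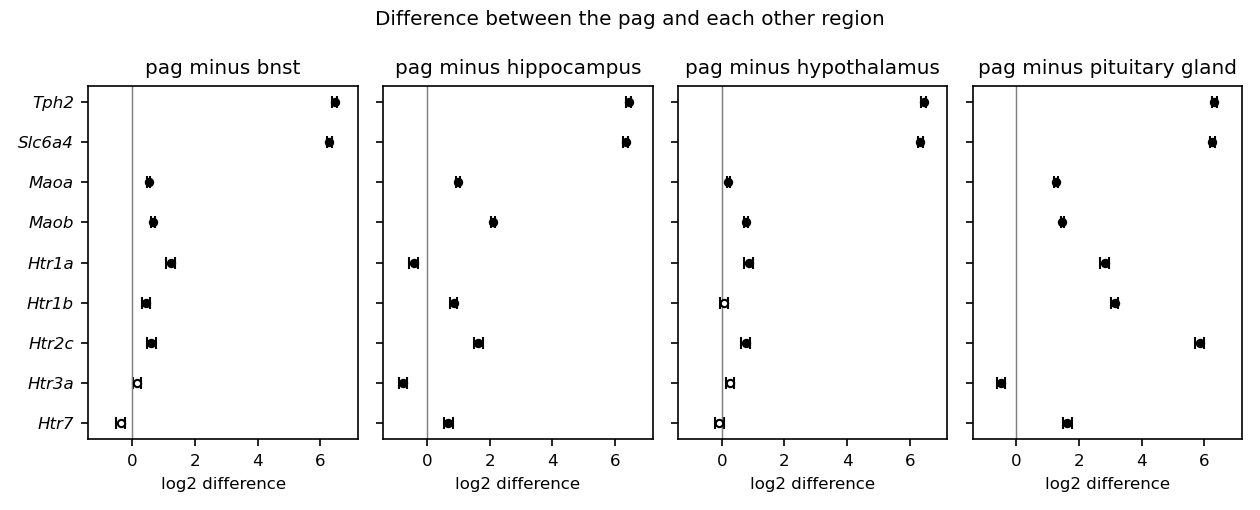
Difference of the pag from each other region on the log2 scale (x axis) for the 9 measured genes, as region means over the 6 strains with standard errors from the limma fit; filled points passed an adjusted p of 0.05 and open points did not. *Tph2* and *Slc6a4* lie above 6 in every panel, and *Htr3a* lies left of 0 against the hippocampus and the pituitary gland.

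Of 8 other serotonin receptor genes measured, *Htr3b* stayed at the floor throughout and 6 of the other 7 differed between regions, as did 71.7% of all probe sets tested. *Htr4*, which couples to stimulatory G proteins, and *Htr5b* were highest in the hippocampus, with mean signals of 103 and 57.1 there and of 38.7 and 38.6 in the pag. Compared with the bnst, 4 of the 7 were higher in the pag and none lower, with a median of 0.44 (23.1% of all probe sets were called). Compared with the hippocampus, 1 was higher in the pag and 2 lower, with a median of 0.0 (42.2% of all probe sets).

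Strain mattered for fewer of the genes. Over the mean of the 5 regions, 3 of 9 genes differed between strains, *Maoa* (adjusted p = 0.00222), *Htr3a* (adjusted p = 0.000683) and *Maob* (adjusted p = 0.0346), against 39.2% of all probe sets. The call of *Maob* was lost without any 1 of 8 arrays, with adjusted p-values of up to 0.103, and under the methods' regression (adjusted p = 0.0566), and those of *Maoa* and *Htr3a* held without each array in turn. The strain comparison of *Tph2* and *Slc6a4* over all regions rests on the pag, since nearly all their other values were at the floor. The paper warns that strain variants within a probe sequence could change hybridisation and so alter the measured expression. Such variants were not tested for any strain difference given here.

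*Maoa* was higher in 129S6/SvEvTac than in the other strains on average, by 0.20 ± 0.05 (SE, adjusted p = 0.00315), and lower in C3H/HeJ, by -0.19 ± 0.05 (SE, adjusted p = 0.00602). The strains differed in the hypothalamus (adjusted p = 0.0361). In the pituitary gland *Maoa* missed the threshold (adjusted p = 0.0514), and passed it with quantile normalization (0.0421), a floor at the 30th percentile (0.0476), the filter on dim probe sets (0.0475) or without any 1 of 13 arrays. In the hypothalamus the 2 arrays of 129S6/SvEvTac had signals of 352 and 484, and the other 10 arrays lay between 265 and 322. 129S6/SvEvTac thus lay above all other strains in that region, with 1 array far above the rest. The call was lost when each array was scaled to 1 median (adjusted p = 0.436), when the variance was given no trend (adjusted p = 0.0502) or when any 1 of 5 hypothalamus arrays was left out (adjusted p up to 0.813), among them 129S6/SvEvTac array 2. The second *Maoa* probe set put C57BL/6J (0.36 ± 0.09, SE, adjusted p = 0.00204) beside 129S6/SvEvTac (0.37 ± 0.09, SE, adjusted p = 0.00234) as higher strains and A/J as lower (-0.31 ± 0.09, SE, adjusted p = 0.0134), and did not call C3H/HeJ (adjusted p = 0.235). By that probe set the strains differed in the hypothalamus (adjusted p = 0.000415), the pag (0.00582) and the bnst (0.0128), and the interaction of strain and region passed (0.00546).

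*Maob* was the 1 member for which, by the brighter probe sets, the strain differences depended on the region (interaction adjusted p = 0.000564, against calls for 11.3% of all probe sets). In the pag, signals were 746 and 933 in FVB/NJ, 809 and 711 in DBA/2J, 645 and 706 in 129S6/SvEvTac, 691 and 689 in C3H/HeJ, 699 and 675 in C57BL/6J, and 549 and 446 in A/J. A/J lay below every other strain there (adjusted p of the 6 strains 0.00896), and leaving out its array 2, which held RNA of 1 mouse, ended the call (adjusted p = 0.196). In the pituitary gland the order was another. DBA/2J had 383 and 376, A/J 301 and 285, C3H/HeJ 268 and 224, 129S6/SvEvTac 260 and 185, FVB/NJ 213 and 217, and C57BL/6J 164 and 183. DBA/2J stood above all other pituitary gland arrays, 2.19-fold above C57BL/6J (adjusted p of the 6 strains 6.49e-06). The sum of 7 astrocyte genes was 800 and 954 on the DBA/2J arrays and 750 and 741 on those of C57BL/6J. It was highest, at 1128, on C3H/HeJ array 2, where the sum of 4 oligodendrocyte genes was 4286, against 88.0 to 281 on the other 11 pituitary gland arrays, and *Maob* was 224. The part of glia in the *Maob* signal was not tested. In the hippocampus C57BL/6J was highest, with 209 and 195 against 124 to 179 in the other strains, but the strains missed the threshold there (adjusted p = 0.0664). In the hypothalamus the strain means spanned 1.13-fold (adjusted p = 0.969).

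*Htr3a* was lower in FVB/NJ (-0.46 ± 0.11, SE, adjusted p = 0.00352) and in 129S6/SvEvTac (-0.32 ± 0.11, SE, adjusted p = 0.0333) than in the other strains on average, and higher in C3H/HeJ (0.34 ± 0.11, SE, adjusted p = 0.0358). In the hippocampus FVB/NJ had 50.7 and 79.7 and C3H/HeJ 94.2 and 146. The call of C3H/HeJ did not hold without any 1 of 7 arrays, nor did that of 129S6/SvEvTac without any 1 of 6, while that of FVB/NJ held in every such fit.

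**Figure D4:**
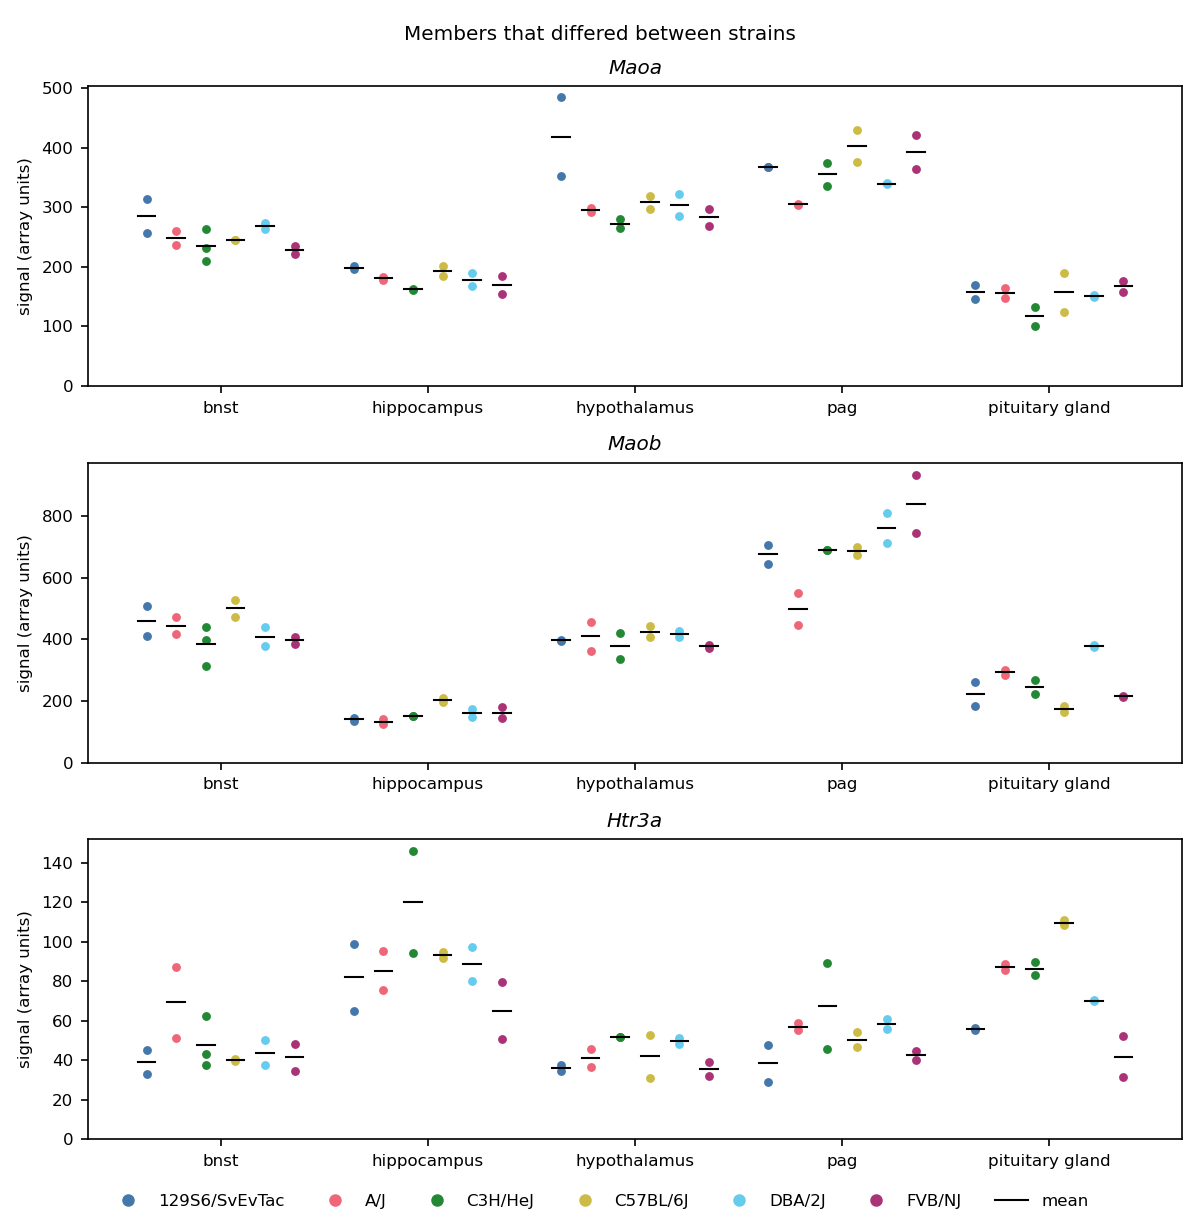
Signal in arbitrary array units (linear axes from 0) of *Maoa*, *Maob* and *Htr3a* in the 6 strains within each region; each point is an array and each black line the mean of a group. DBA/2J is highest for *Maob* in the pituitary gland, at 376 and 383, and A/J lowest in the pag, at 446 and 549.

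Counted by strain, 2 of the 9 genes were called for 129S6/SvEvTac (18.7% of all probe sets), 2 for C3H/HeJ (10.5%), 1 for DBA/2J (13.5%; *Maob*, 0.19 ± 0.05, SE, adjusted p = 0.00985) and 1 for FVB/NJ (11.0%). By limma no gene was called for A/J (15.1%) or C57BL/6J (22.0%), and 1 gene for each, *Htr3a* and *Htr1b*, had an unadjusted p under 0.05. Within regions, 1 gene differed between strains in the hypothalamus (10.9% of all probe sets) and 1 in the pag (13.3%). None did in the bnst (19.3%), where none had an unadjusted p under 0.05 either, and none in the hippocampus (10.6%), where 1 had.

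The pituitary gland was the region with the most strain calls, 5 of 9 genes (*Maob*, *Htr1a*, *Htr1b*, *Htr3a* and *Htr7*) against 31.9% of all probe sets. Each test within a region used a spread estimated for the probe set over all 30 groups. The p-values here thus do not measure the spread among the pituitary gland arrays alone, which was wide for some of these genes. *Htr1a* had signals of 48.4 and 54.8 in C57BL/6J, 28.9 and 39.5 in 129S6/SvEvTac, 26.1 and 25.7 in A/J, 29.2 and 13.8 in C3H/HeJ, 13.4 and 18.3 in DBA/2J, and 12.6 and 60.1 in FVB/NJ (adjusted p = 0.00337). The 2 arrays of FVB/NJ thus bracketed all others. *Htr7* also had C57BL/6J high, DBA/2J low and the FVB/NJ arrays far apart, with signals of 30.4 and 20.8 in DBA/2J, 81.4 and 71.1 in C57BL/6J and 25.2 and 83.0 in FVB/NJ (adjusted p = 0.0137). *Htr3a*, in contrast, was even within strains other than FVB/NJ, at 70.3 and 69.8 in DBA/2J, 108 and 111 in C57BL/6J and 52.1 and 31.7 in FVB/NJ (adjusted p = 0.00612).

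The FVB/NJ pituitary gland array 2 was also the highest of the 12 for *Htr1b* (32.4) and *Htr2c* (40.7), where array 1 had 12.6 and 14.3. The sum of 7 genes of caudal interneurons was 365 on array 2 and 281 on array 1, and 382 and 311 in C57BL/6J, within a range of 177 to 382 over the 12 pituitary gland arrays and far under the 2668 to 4733 of the brain regions. The sum of 7 astrocyte genes was 740 on array 2 and 778 on array 1. The part of such cells in these receptor signals was not tested. Without FVB/NJ array 2, 4 genes were called in the pituitary gland and *Htr3a* was not (adjusted p = 0.0742). Without C57BL/6J array 1, *Htr1b* (adjusted p = 0.0551) and *Htr7* (adjusted p = 0.0707) were lost, and without DBA/2J array 2, *Htr7* (adjusted p = 0.102). The interaction of strain and region passed for *Htr1a* without either array of FVB/NJ (adjusted p = 0.00376 without array 1 and 0.00193 without array 2), against 0.346 with both. With each array scaled to 1 median 3 were called, *Htr1b* (adjusted p = 0.119) and *Htr7* (adjusted p = 0.0587) being lost. With quantile normalization *Htr1a* (adjusted p = 0.0541), *Htr1b* (0.247) and *Htr7* (0.0739) were lost and *Maoa* was gained (0.0421). *Htr1b* was also lost with a pseudocount of 32 (adjusted p = 0.207) and with a floor at the 30th percentile (0.607). The second probe sets of *Htr1a* (adjusted p = 0.202), *Htr1b* (adjusted p = 0.155) and *Htr7* (adjusted p = 0.860) did not pass in the pituitary gland, whereas that of *Htr2c* did (adjusted p = 0.000538, against 0.121 for the brighter one, which passed with a floor at the 10th percentile, 0.00456). Over all regions, the second probe set of *Htr2c* also had A/J lower (-0.31 ± 0.08, SE, adjusted p = 0.00655), and that of *Htr1a* had 129S6/SvEvTac higher (0.44 ± 0.15, SE, adjusted p = 0.0397).

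In the pag, *Tph2* and *Slc6a4* could be compared among the arrays on which both were bright. *Tph2* signals were 920 and 1162 in 129S6/SvEvTac, 1188 and 751 in A/J, 1137 and 1542 in C3H/HeJ, 1282 and 1138 in DBA/2J, 1139 and 957 in C57BL/6J, and 1033 and 1429 in FVB/NJ, and the strains overlapped (adjusted p = 0.363). *Slc6a4* signals on the same arrays were 1047 and 1189, 965 and 676, 1080 and 1400, 925 and 801, 1042 and 993, and 999 and 1551. Strains did not pass for *Slc6a4* in the main fit (adjusted p = 0.0880), but they did with a floor at the 30th percentile (adjusted p = 0.00440), with each array scaled to 1 median (0.0224), with quantile normalization (0.0322) and without a trend in the variance (0.0211).

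Across the 12 pag arrays *Tph2* and *Slc6a4* correlated with Pearson's r of 0.747 (permutation p = 0.00574, adjusted p = 0.0329 over 11 relations tested) and Spearman's rho of 0.455 (permutation p = 0.143, adjusted p = 0.314). Without the 2 arrays farthest from the median of *Slc6a4* r was 0.440, so the relation rests on those arrays. With the mean of each strain taken off r was 0.946. The 2 arrays of a strain then deviate by equal and opposite amounts. This value thus rests on 1 difference in each of the 6 strains and carries no test. The transcripts of the pathway gave similar values, r of 0.719 for *Tph2* with *Ddc* and 0.717 with *Slc18a2* (permutation, both adjusted p = 0.0329). These fell to 0.461 and 0.291 without the 2 arrays farthest from the median of *Ddc* and of *Slc18a2*, respectively. *Maob* followed at 0.683 (permutation, adjusted p = 0.0487), falling to 0.149 without the 2 arrays farthest from its own median. For *Htr1a* (0.403), *Htr1b* (0.416) and *Th*, the hydroxylase of catecholamine neurons (-0.08), the relation with *Tph2* did not pass. None of the 11 passed by Spearman's rho, the lowest adjusted p being 0.312. The relation of *Htr2c* with *Ttr* did not pass in the bnst (r = 0.07), hippocampus (-0.05), hypothalamus (0.294) or pag (0.287). With the mean of each strain taken off, r was 0.026, -0.228, -0.183 and -0.667 in these regions, without a test. With 12 or 13 arrays per region, a relation that does not pass is not shown to be absent.

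The log2 ratio of *Slc6a4* to *Tph2* in the pag was -0.47 and -0.51 on the DBA/2J arrays and between -0.30 and 0.19 on the other 10. DBA/2J was singled out after its values were seen, so no test is given. A ratio of signals does not say which of the 2 genes differed, nor whether a sequence difference under a probe changed its hybridisation.

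**Figure D5:**
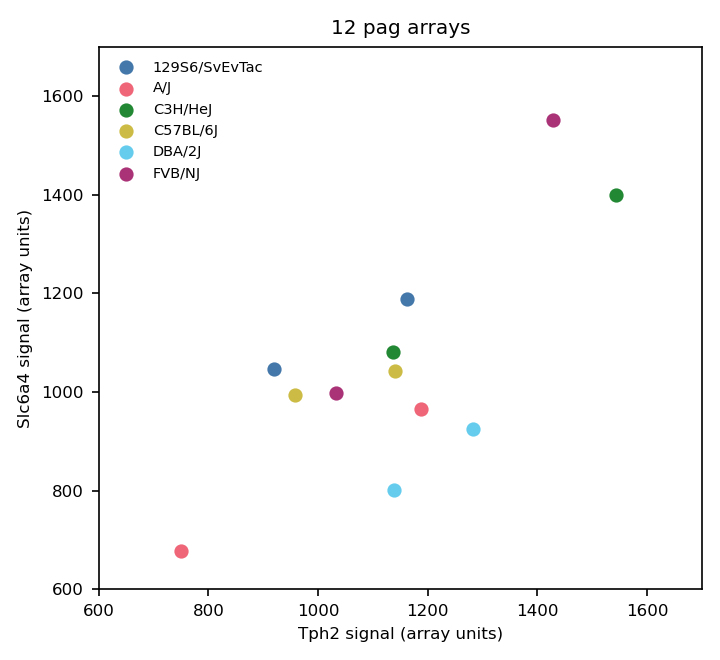
Signals of *Tph2* (x axis) and *Slc6a4* (y axis) in arbitrary array units on the 12 pag arrays, coloured by strain; both axes start at 600. The array with the lowest values of both genes is A/J array 2, at 751 and 676, and the DBA/2J arrays lie lowest in *Slc6a4* for their level of *Tph2*.

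To see which genes shared the members' patterns, log2 signals were correlated over the 30 group means with those of all other genes. The values describe likeness over groups that share strains and regions, and carry no test. The genes most like *Tph2* were *Slc6a4* (r = 0.998), *Gata3* (0.998) and *Mab21l1* (0.987), and *Tph2* and the same other genes led for *Slc6a4*. Outside the pag the means of these genes were near or under the floor. Their r thus rests largely on the difference between the pag and the floor. *Htr2c* was closest to *Kcnc1*, a potassium channel of fast-firing neurons (0.995), *Slc7a10*, an amino acid transporter of astrocytes (0.992), and *Kcnj10*, a potassium channel of glia (0.992), all of them with their lowest mean in the pituitary gland. *Htr1b* was closest to *Ankrd34b* (0.985), *Nkain4* (0.984) and *Slc7a10* (0.983). The leading genes of *Maoa* (*Stip1*, 0.956), *Maob* (*Grhpr*, 0.947), *Htr1a* (*Zfpm2*, 0.956) and *Htr7* (*Vwc2*, 0.945) had lower r. These members were not confined to 1 region, so their values are not comparable with those of *Tph2* and *Slc6a4*. *Htr3a* was left out, since its mean signal did not exceed 100 in any region.

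The linear model that the study fitted to the untransformed signals, with terms for region, strain and both together, was refitted without its filter on detection. Effects were coded as deviations from their mean and tested by F, where the study used indicator variables and also permuted the data. The shares below are therefore not those of the study's own fit. By the study's definitions all 9 genes were region-specific by their brighter probe sets, as were 60.6% of all probe sets. The second probe set of *Htr1b* met neither definition (p for region 0.0179 by the F test). None of the 9 genes was strain-specific (8.87% of all probe sets), because the p for region was smaller in each. The p for strain was under 0.05 for 4 of the 9 and under 0.01 for *Maoa* and *Htr3a*. An interaction at p under 0.01 was found for 2, *Maob* and *Htr1a*, against 16.0% of all probe sets.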

How the data were processed

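RNA of 5 brain regions from 6 strains was hybridised to 61 Affymetrix Mouse Genome 430 2.0 arrays. The authors processed the scans with the TeraGenomics software and deposited 1 intensity per probe set and array on a linear scale, background-corrected and scaled (array means 180 to 201; 5.36% of values were below 0). The scaling target is not given in the sources used here. The deposited intensity carries no read depth, so precision depends on how many arrays a group has. Correlations of arrays within a group were 0.974 to 0.998.

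After 64 control probe sets were left out, signals were raised to the 20th percentile of all values (12.8) and log2 was taken. Linear models with 1 mean per group (30 groups) were fitted in limma 3.58.1 (R 4.3.3) with a variance trend, over 44065 probe sets (972 at the floor on every array were left out). The tests were moderated F tests and contrasts, two-sided, with Benjamini-Hochberg adjustment over all probe sets within each comparison and a call at an adjusted p of 0.05. The fit had 31 residual degrees of freedom. The models were tested on simulated data first. The arrays within a group held independent animals, and scan dates are not given in the sources used here.

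Members were all probe sets annotated to exactly 1 of the 10 genes. Of all probe sets 34945 named 1 gene, 932 several and 9160 none. The genes of other lists were named by the same rule, and the genes most like a member were the 3 with the highest Pearson's r over group means, for members over 100 in a region. The members and lists were chosen with earlier results of these data known. Names, positions and promoters came from RefSeq tables of GRCm38.p6, which list no promoter for *Htr3a* and *Maob*. Detection calls were not used here.

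Same-numbered arrays of a strain in different regions did not deviate together (median correlation 0.01, with 24 of 112 over 0.1), so replicate numbers were not treated as pairs. Relations within a region were tested with 100000 permutations in scipy 1.17.1, two-sided. Alternatives were other floors, a pseudocount of 32, scaling to 1 median, quantile normalization, a filter on dim probe sets, no variance trend, the replicate number as a block, the methods' regression, the second probe sets and leaving out each array.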

Additional observations from a re-analysis of the deposited data

Results flagged for a closer look

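The strain differences of *Maob* differed between regions by the test of the interaction (adjusted p = 0.000564 by limma, and 0.000154 to 0.00322 without each array in turn). DBA/2J was highest in the pituitary gland and FVB/NJ in the pag. Single arrays were not tested as outliers, because no group had over 3 arrays.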

How the results depend on the processing

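All 9 measured genes differed between regions under every setting tried that kept them. The count of genes with an interaction of strain and region rose from 1 to 2 under the methods' regression. The count of strain differences in the hippocampus rose from 0 to 1 with a filter to signals over 50 on at least 2 arrays and with the replicate block, where *Maob* passed (adjusted p = 0.0318). In the hypothalamus the count fell from 1 to 0 without a variance trend and with each array scaled to 1 median. In the pag it rose from 1 to 2 with quantile normalization, without a trend, with a floor at the 30th percentile and with scaling to 1 median, *Slc6a4* being added. In the pituitary gland it fell from 5 to 3 with quantile normalization and with scaling to 1 median. The replicate block also ended the call of *Htr3a* for C3H/HeJ (0.29, adjusted p = 0.0852) and changed no other call. Among differences called by either probe set of a gene, the second probe sets reversed 6. These were *Maoa* in pag minus hypothalamus (-0.048), *Htr1b* in hypothalamus minus bnst (-0.14) and in the pituitary gland minus bnst (0.070), hippocampus (0.60) and hypothalamus (0.21), and *Htr2c* in A/J (-0.31). The cause of these changes was not tested.

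Leaving out 1 array at a time gave counts of 9 to 9 for regions, 2 to 5 for strains and 1 to 2 for the interaction. Within regions, strains differed in 4 to 7 genes for the pituitary gland, 0 to 2 for the pag, 0 to 1 for the hypothalamus and likewise the hippocampus, and 0 to 0 for the bnst. The count in the pag fell to 0 without A/J array 2, and that in the pituitary gland rose to 7 without C57BL/6J array 2 and to 6 without FVB/NJ array 1. No sign of a called difference turned in any of these fits. Scaling each array to 1 median shifted all probe sets by -0.10 in pituitary gland minus bnst and by -0.12 in pituitary gland minus hippocampus.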
